A study of Mus musculus with 6 samples.

Results

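Pax6, Six3, Sox1, Sox2, Foxe3, Pitx3, Maf, Prox1 and Hsf4 are the transcription factor genes by which surface ectoderm becomes lens and lens cells become epithelium or fibers. They were chosen by name, and these 9 genes are 9 of the 41128 features listed for each library. Their transcripts were compared by RNA sequencing between whole lenses of mouse embryos at E15.5 with and without conditional loss of Itgb1, the gene of β1-integrin, a receptor subunit that joins cells to the matrix of the lens capsule. The conditional knockout (cKO) carried floxed alleles of Itgb1 on both chromosomes and the MLR10 Cre transgene, was of mixed strain background and held 30 pooled lenses in each of 3 replicates. The wild type (WT) was C57Bl/6 without floxed alleles or Cre, with 75 lenses pooled in each of 3 replicates, and its records repeat those of an earlier series. MLR10 drives Cre from a modified αA-crystallin promoter that carries an added Pax6 binding site and is active in lens epithelium and fibers. Genotype, strain background, presence of Cre, pool size and series of origin changed together, so their parts in any difference cannot be told apart.

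Pax6, a paired-box and homeobox factor, and Six3, a homeobox factor that acts upstream of it, set up the lens placode together with the HMG-box factor Sox2. Foxe3, a forkhead factor, keeps lens epithelial cells dividing and alive, and Pitx3, a homeobox factor, acts upstream of it. When epithelial cells leave the cycle at the lens equator, Maf, a basic leucine zipper factor, and Prox1, a homeodomain factor, switch on crystallin genes and cell elongation, Sox1 activates γ-crystallin genes, and Hsf4, a heat shock factor, acts late in fiber maturation. Levels below are given as deposited by the authors, as CPM (reads scaled to the total counted over all listed features of the library) within a gene and as RPKM (CPM per kilobase of exon) between genes.

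Itgb1 had 236, 275 and 262 CPM in cKO lenses, against 402, 424 and 448 CPM in WT lenses, a log2 fold change of -0.72 (SE 0.077, adjusted p = 1.63e-05 by limma), and every cKO library lay below every WT library. The values are of the gene as listed, and which part of it is floxed is not stated in the sources used here. Libraries held 20036554 to 28095318 reads in cKO and 10023049 to 11531139 in WT, so 1 read was worth 0.0356 to 0.0998 CPM. Fiber cell markers summed to 217940 to 248050 CPM in cKO and 237510 to 254730 CPM in WT, and lens epithelium markers to 4856 to 5423 CPM in cKO and 4923 to 5544 CPM in WT, so the tissue label is borne out in all 6 libraries. Some markers of other cell types differed between the groups. Macrophage markers summed to 25.9 to 36.9 CPM in cKO and 10.1 to 13.2 in WT. Endothelial markers summed to 216 to 261 CPM in cKO and 127 to 159 in WT. Periocular mesenchyme markers summed to 34.1 to 52.2 CPM in cKO and 17.7 to 21.1 in WT, with Foxc2 listed at 0. Retina markers summed to 65.0 to 129 CPM in cKO and 66.3 to 83.2 in WT, and corneal epithelium markers to 0.427 to 0.948 in cKO and 0.781 to 1.30 in WT, with Krt12 listed at 0. Of 14 retina markers 3 were tested and 1 rose (Hes5, 0.38, adjusted p = 0.0359), a call lost without any 1 of 5 libraries (adjusted p = 0.0595 to 0.131), WT replicate 3 being the exception, and none of 7 corneal epithelium markers was high enough to be tested.

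Of the 9 lens factors, 1 was higher in cKO lenses, 1 was lower, 5 did not pass the test and 2 were listed at 0 in every library. Maf rose by 0.50 on the log2 scale and Foxe3 fell by 0.37, while Pax6, Six3, Pitx3, Prox1 and Hsf4 had log2 fold changes between -0.13 and -0.02. A gene was tested if at least 3 libraries had at least 1 CPM, which 7 of the 9 factors passed with at least 968 reads in each library. Of these 7, 2 (28.6%) had an adjusted p under 0.05, against 36.9% of the 11941 genes tested (20.9% higher and 15.9% lower, and 40.0% in all by edgeR) and 42.2% of the 3126 genes whose mean reached 50 CPM. The median size of the 7 log2 fold changes, regardless of sign, was 0.08, against 0.21 over all genes tested and 0.19 over the abundant genes. In these bulk libraries fewer cells of a type and less RNA per cell cannot be told apart.

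**Figure D1:**
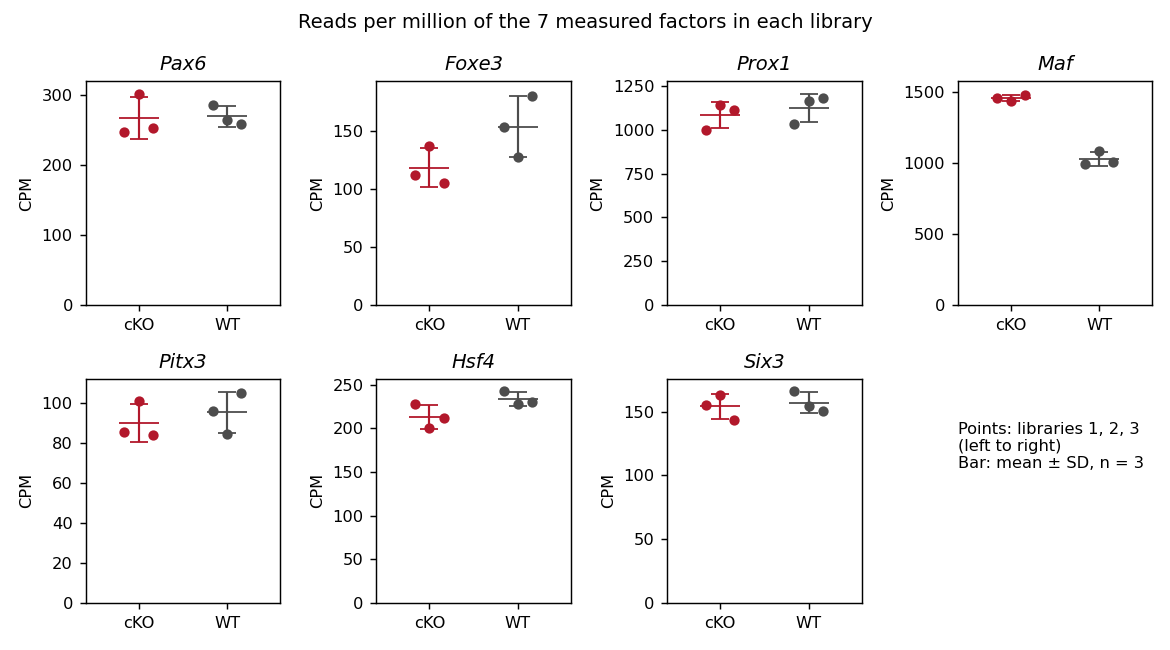
CPM of the 7 measured lens factors in each library, with 3 cKO libraries left of 3 WT libraries in every panel, points for libraries 1 to 3 and bars for the mean ± SD (n = 3 each). The groups stand apart for Maf (1436 to 1476 CPM in cKO, 993 to 1087 CPM in WT), stand apart by under 1 CPM for Hsf4, and overlap for the other 5 factors.

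Promoter sequences, as RefSeq start sites on GRCm38.p6 define them from 250 bases before to 50 bases after the start, were matched for 7 of the 9 factors in 9 windows, and not for Maf and Hsf4. The Foxe3 window is shown because Foxe3 is the factor that fell in cKO lenses, and the Sox2 window because it was the only one of the 9 with a motif match. Both are written 5′ to 3′ on the strand of the gene, Foxe3 from chr4:114926018-114926317 (minus strand) and Sox2 from chr3:34649745-34650044 (plus strand), and capitals mark motif matches.
Foxe3: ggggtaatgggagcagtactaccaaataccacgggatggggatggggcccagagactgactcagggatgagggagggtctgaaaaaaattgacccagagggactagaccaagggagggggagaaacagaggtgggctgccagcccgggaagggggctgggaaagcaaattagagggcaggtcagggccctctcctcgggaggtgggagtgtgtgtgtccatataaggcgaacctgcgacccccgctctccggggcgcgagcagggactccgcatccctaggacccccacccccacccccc
Sox2: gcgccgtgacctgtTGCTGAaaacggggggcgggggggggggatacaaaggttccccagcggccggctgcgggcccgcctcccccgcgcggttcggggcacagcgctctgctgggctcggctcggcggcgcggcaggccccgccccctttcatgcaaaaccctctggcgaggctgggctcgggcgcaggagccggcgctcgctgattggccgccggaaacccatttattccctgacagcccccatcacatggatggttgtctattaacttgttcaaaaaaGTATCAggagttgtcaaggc
The letters searched, on both strands, were GAANNTTC for a heat shock element, TGCTGA for the recognition element of large Maf proteins, ATTGTT for Sox proteins, TAATCC for Pitx proteins and TGATAC for relatives of Six3. Among 32851 windows of the same length, 7.9% held the heat shock element, 19.5% the Maf element, 10.7% the Sox element, 7.1% the Pitx element and 5.5% the Six3-type element. The Sox2 window held the Maf element from base 15 and the Six3-type element, as its reverse complement, from base 281. This window ends at 34650044, before the GENCODE start of Sox2 at 34650405. The Foxe3 window likewise lies outside the GENCODE model of Foxe3, which ends at 114926013, so RefSeq and GENCODE start sites differ for both genes. No letters of the 5 kinds were found in the windows of Pax6, Foxe3, Prox1, Sox1, Pitx3 and Six3.

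Maf (ENSMUSG00000055435; GRCm38 chromosome 8, 115682942 to 115707794, minus strand, protein coding, 8241 exonic bases) was the factor that rose. It had 1460.2, 1436 and 1476 CPM in cKO lenses, against 993, 1087 and 1011 CPM in WT lenses. All 3 cKO libraries lay above all 3 WT libraries, and the relative SD between replicates was 1.38% in cKO and 4.87% in WT. The means of 1457 ± 20.1 CPM in cKO and 1030.3 ± 50.2 CPM in WT (SD, n = 3 each) gave a log2 fold change of 0.50 (SE 0.069, 95% interval 0.35 to 0.65, adjusted p = 0.000134 by limma), a ratio of 1.41 with an interval of 1.28 to 1.57. Its size exceeded that of 85.8% of all genes tested. The call was kept in all 18 alternative settings, with log2 fold changes of 0.47 to 0.54, and the fold change was 0.50 with all libraries thinned to 10023049 reads.

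The difference in Maf amounted to 427 CPM. Macrophages also express Maf, and their summed markers reached at most 36.9 CPM in any library. The summed endothelial markers reached at most 261 CPM in any library. Marker sums do not give the Maf reads of the cells they mark. The part of macrophages or endothelial cells in the rise of Maf was not tested. Of the 50-base words of Maf transcripts, 4.64% also occur in transcripts of other genes. Gm15655, an unnamed antisense transcript that shares 440 exonic bases with Maf, was listed at 0 in all libraries.

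Foxe3 (ENSMUSG00000044518; chromosome 4, 114925147 to 114926013, minus strand, 1 exon of 867 bases) was the factor that fell. It had 113, 138 and 106 CPM in cKO lenses, against 154, 127 and 180.3 CPM in WT lenses. The groups overlapped, since cKO replicate 2 was above WT replicate 2. The means of 119 ± 16.8 CPM in cKO and 154 ± 26.4 CPM in WT gave a log2 fold change of -0.37 (SE 0.127, 95% interval -0.65 to -0.09, adjusted p = 0.0424 by limma), a ratio of 0.776. Its replicates spread the most of the 7 factors, with a relative SD of 14.1% in cKO and 17.2% in WT, where counting alone gives at most 2.62%. Adjusted p was 0.126 without cKO replicate 1, 0.14 without cKO replicate 3, 0.0866 without WT replicate 1 and 0.1 without WT replicate 3, and 0.0508 with all libraries thinned to equal reads, and the call was kept in 11 of 18 alternative settings. Of 10 lens epithelium markers 5 fell and 1 rose, against 15.9% of all genes lower and 20.9% higher, with overlapping sums of 4856 to 5423 CPM in cKO and 4923 to 5544 CPM in WT. Most of each sum was Cryab, with means of 3439 CPM in cKO and 3363 CPM in WT and an uncalled fold change (0.03, adjusted p = 0.851 by limma). The sums thus say little of the other epithelium markers, and the part of these markers in the fall of Foxe3 was not tested.

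**Figure D2:**
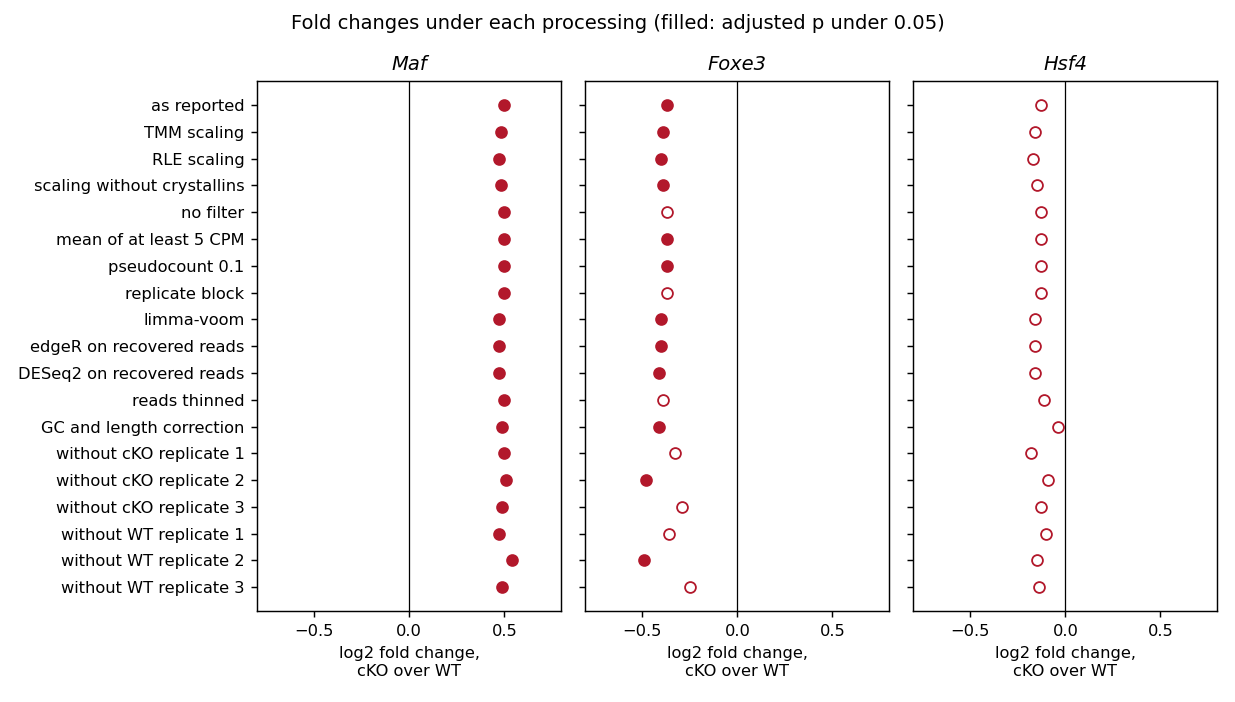
Log2 fold change, cKO over WT, of Maf, Foxe3 and Hsf4 under the reported processing and 18 alternatives, 1 per line, filled where adjusted p was under 0.05. Maf is filled throughout between 0.47 and 0.54, Foxe3 is filled in 11 of the 18 alternatives between -0.49 and -0.25, and Hsf4 is open throughout between -0.18 and -0.04.

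Pax6 (ENSMUSG00000027168; chromosome 2, 105668900 to 105697364, plus strand, 16 merged exons) stood at nearly the same level in both groups. It had 247, 301 and 252 CPM in cKO lenses, against 285, 264 and 258 CPM in WT lenses, so the WT values lay within the range of cKO. The log2 fold change was -0.02 (95% interval -0.20 to 0.16, adjusted p = 0.894), an interval of 0.871 to 1.12 for the ratio, which leaves room for a difference of either sign within it. The highest value was in cKO replicate 2, the library that also had the highest summed level of retina markers, cells that express Pax6 as well. The 14 retina markers summed to 129 CPM in that library, against 67.4 and 65.0 CPM in the other cKO libraries. Most of that sum was Sfrp2, with 106 CPM in that library and an uncalled fold change, whereas Lhx2, an eye field factor, was highest in WT replicate 2 (1.83 CPM in cKO replicate 2 and 3.86 CPM in WT replicate 2). Their part in the spread of Pax6 was not tested.

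Six3 (ENSMUSG00000038805; chromosome 17, 85613608 to 85629302, plus strand) had 155, 163 and 144 CPM in cKO lenses, against 166, 154 and 151 CPM in WT lenses. The groups overlapped, with a log2 fold change of -0.03 (95% interval -0.19 to 0.13, adjusted p = 0.796). Its opposite-strand transcript Six3os1, a noncoding RNA that begins within the span of Six3, was lower in cKO lenses. The difference between the 2 fold changes was not tested. Six3os1 had 169, 193 and 172 CPM in cKO lenses, against 222, 212 and 209.9 CPM in WT lenses. The groups did not overlap, and the log2 fold change was -0.27 (SE 0.074, adjusted p = 0.0119). Leaving out cKO replicate 3 ended the call (adjusted p = 0.0649), as did a correction for GC content and gene length (-0.17, adjusted p = 0.0828). The library kit does not mark strand and the pair shares 106 exonic bases of the 5446 of Six3, so reads from those bases cannot be told apart. A further antisense gene model at Six3, Gm28528, shares 168 exonic bases with it and was not matched to a listed feature.

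Sox1 (ENSMUSG00000096014; chromosome 8, 12395295 to 12400126, plus strand, 1 exon of 4832 bases) and Sox2 (ENSMUSG00000074637; chromosome 3, 34650405 to 34652461, plus strand, 1 exon of 2057 bases) were listed at 0 reads in all 6 libraries. No ratio, fold change or test can be given for them. A listed 0 is no measure of absence here, because the ribosomal protein genes Rps12 and Rps27, which every cell uses, were also listed at 0 in all libraries (examples chosen after their values were seen). Sox1 lies wholly within the span of the noncoding gene Sox1ot, listed under its older name Gm5607, and Sox2 wholly within that of Sox2ot, each on the same strand and with no shared exonic base. Of the protein-coding genes that lie within another gene on the same strand, 158 of 279 (56.6%) were listed at 0 throughout, as were 358 of 680 (52.6%) within a gene on the opposite strand and 4221 of 20303 (20.8%) of those not within another gene.

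The host transcripts of the Sox genes were both listed above 0 (they were chosen after their values were seen). The counting rule is not stated, so whether reads of the Sox genes entered the host values is unknown. Sox2ot had 104, 109 and 104 CPM in cKO lenses, against 127, 122 and 123 CPM in WT lenses. The groups did not overlap, and Sox2ot fell by 0.23 on the log2 scale (SE 0.069, adjusted p = 0.0187). Leaving out cKO replicate 3 (adjusted p = 0.0884) or WT replicate 2 (adjusted p = 0.0538) ended this call. Sox1ot had 112, 114 and 106 CPM in cKO lenses, against 99.6, 96.2 and 98.3 CPM in WT lenses, groups that did not overlap, with a log2 fold change of 0.17 that did not pass the threshold (adjusted p = 0.0725). With correction for GC content and length Sox1ot passed it (0.23, adjusted p = 0.0119).

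Pitx3 (ENSMUSG00000025229; chromosome 19, 46135685 to 46148326, minus strand), the lowest in CPM of the 7 measured factors in both groups, had 85.6, 101 and 84.2 CPM in cKO lenses, against 96.1, 84.9 and 105 CPM in WT lenses. The groups overlapped almost fully, with a log2 fold change of -0.08 (95% interval -0.28 to 0.13, adjusted p = 0.561). Elovl3, a fatty acid elongase gene on the opposite strand that shares 10 exonic bases with Pitx3, averaged 0.953 ± 0.379 CPM in cKO and 1.30 ± 0.442 CPM in WT (adjusted p = 0.350).

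Prox1 (ENSMUSG00000010175; chromosome 1, 190118035 to 190170714, minus strand) had 997, 1141 and 1113 CPM in cKO lenses, against 1031, 1162 and 1181 CPM in WT lenses. The groups overlapped, with a log2 fold change of -0.05 (95% interval -0.23 to 0.12, adjusted p = 0.633). Prox1os, which shares 133 exonic bases with Prox1 on the opposite strand, averaged 85.5 ± 8.89 CPM in cKO and 98.7 ± 9.08 CPM in WT, a log2 fold change of -0.21 (adjusted p = 0.0994) that passed the threshold without cKO replicate 1 (adjusted p = 0.0285) or WT replicate 3 (adjusted p = 0.0271) and once GC content and gene length were corrected for (-0.33, adjusted p = 0.0013). Gm28172, another antisense model at Prox1, was not matched to a listed feature. Pax6os1, the antisense transcript at Pax6 with no shared exonic base, averaged 0.587 ± 0.261 CPM in cKO and 0.174 ± 0.173 CPM in WT and was too low to be tested.

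Hsf4 (ENSMUSG00000033249; chromosome 8, 105269801 to 105275845, plus strand, 13 merged exons) had 227.3, 200.1 and 212.1 CPM in cKO lenses, against 242.3, 227.9 and 229.6 CPM in WT lenses. The groups did not overlap, but only narrowly, since cKO replicate 1 lay just under WT replicate 2. The log2 fold change was -0.13 (SE 0.072, 95% interval -0.29 to 0.02, adjusted p = 0.176), and it passed the threshold in none of the 18 alternative settings. Maf and Hsf4 were thus 2 of 7 factors whose groups did not overlap, against 48.1% of all genes tested.

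**Figure D3:**
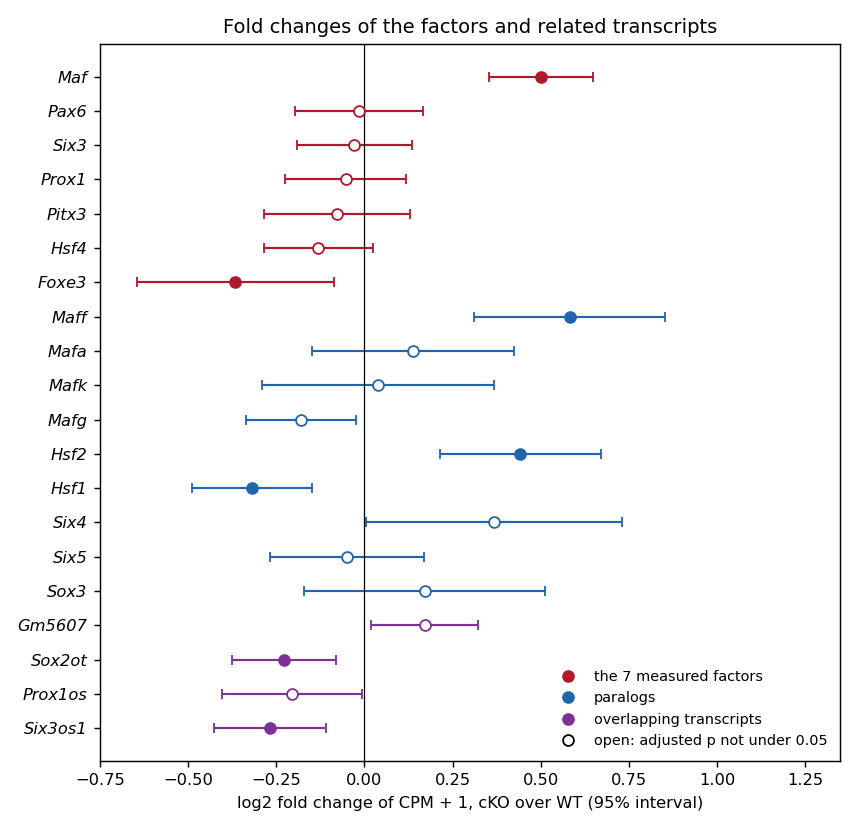
Log2 fold change of CPM + 1, cKO over WT, with its 95% interval from limma, for the 7 measured factors, their 9 tested paralogs and 4 overlapping transcripts (Sox1ot as Gm5607), filled where adjusted p was under 0.05. The factors range from -0.37 (Foxe3) to 0.50 (Maf), with 5 open points at -0.13 to -0.02 between them.

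Per kilobase of exon, the levels of the factors fell into an upper and a lower tier in both groups. In cKO lenses Maf was highest at 177 ± 2.44 RPKM, followed by Foxe3 (137 ± 19.4 RPKM), Prox1 (129.7 ± 9.11 RPKM) and Hsf4 (122 ± 7.79 RPKM), whose values overlapped with those of the next factor in the order from Foxe3 to Hsf4. Pitx3 followed at 59.2 ± 6.26 RPKM, Six3 at 28.3 ± 1.82 RPKM and Pax6 at 22.8 ± 2.56 RPKM, with no overlap between neighbours. In WT lenses Foxe3 was highest at 177.5 ± 30.5 RPKM, followed by Prox1 (135 ± 9.77 RPKM), Hsf4 (133 ± 4.49 RPKM) and Maf (125 ± 6.09 RPKM), and the ranges of Prox1, Hsf4 and Maf overlapped from each to the next. Pitx3 had 62.6 ± 6.76 RPKM, Six3 28.8 ± 1.49 RPKM and Pax6 23.0 ± 1.23 RPKM in WT, again without overlap between neighbours. Among the genes tested, the factors lay between the 84.2 percentile (Pax6) and the 98.9 percentile (Foxe3) of RPKM in every library.

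Maf thus ranked 1 of 7 in cKO and 4 of 7 in WT, and Foxe3 2 of 7 in cKO and 1 of 7 in WT. The length behind each RPKM value decides part of this order. The deposited length equals all exonic bases of a gene for each factor measured but Prox1 (8356 against 8390 bases), which for Pax6 is 11694 bases while its longest coding transcript has 4427. By the longest coding transcript Pax6 had 60.3 ± 6.75 in cKO and 60.8 ± 3.25 in WT as CPM per kilobase, above Six3 at 41.8 ± 2.69 in cKO and 42.7 ± 2.21 in WT. The Foxe3 model of 867 bases holds coding sequence alone, a whole number of codons, so its RPKM rests on a shorter stretch than that of the other factors.

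**Figure D4:**
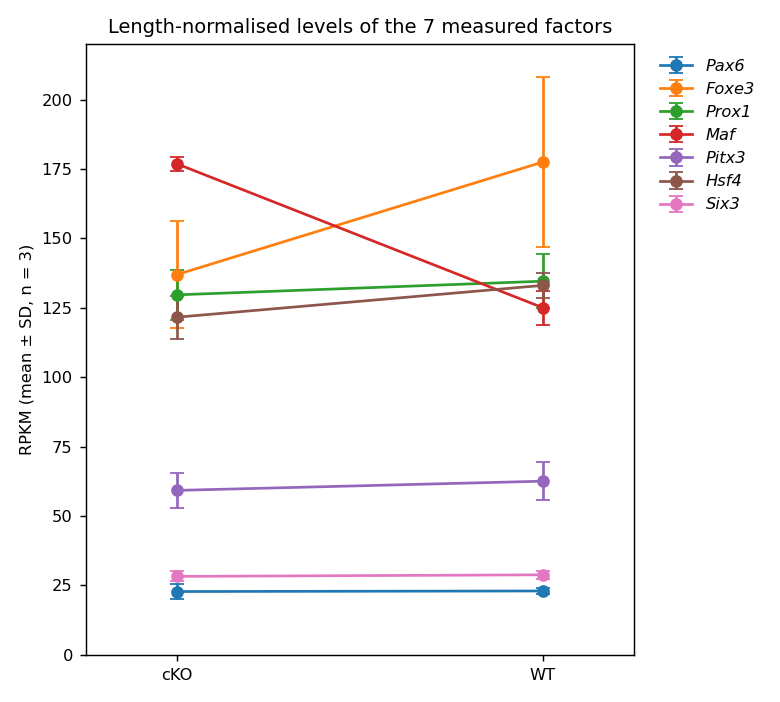
Mean RPKM ± SD (n = 3 each) of the 7 measured factors in cKO (left) and WT (right), with lines joining the same factor. Maf is highest in cKO (177 RPKM) and ranks 4 of 7 in WT (125 RPKM), Foxe3 is 137 RPKM in cKO and 177.5 RPKM in WT, and Pitx3, Six3 and Pax6 keep the same order in both groups.

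Ratios between factors within a library do not depend on how libraries are scaled. The log2 ratio of Maf to Foxe3 RPKM was 0.45, 0.13 and 0.55 in the cKO libraries, against -0.56, -0.16 and -0.76 in the WT libraries. By the deposited lengths every cKO library thus had more Maf than Foxe3 per kilobase and every WT library less, with a mean difference of 0.87 between the groups. The side of 0 depends on the length used, since by longest coding transcript WT replicate 2 had 171 of Maf and 147 of Foxe3 in CPM per kilobase, while the difference of 0.87 does not depend on length. The ratio of Maf to Pax6 was 3.07, 2.76 and 3.05 in cKO, against 2.30, 2.54 and 2.48 in WT, and that of Foxe3 to Pax6 was 2.62, 2.62 and 2.50 in cKO, against 2.86, 2.70 and 3.24 in WT. Neither pair of groups overlapped, and the mean differences were 0.52 and -0.35. These differences largely restate the log2 fold changes of Maf (0.50) and Foxe3 (-0.37), since that of Pax6 was -0.02. In CPM the groups of Foxe3 itself overlapped, and 48.1% of all genes tested had groups that did not. No such share was taken over ratios. The ratios of Prox1, Pitx3, Hsf4 and Six3 to Pax6 overlapped between the groups, with mean differences of -0.11 to -0.01. Six3 to Pax6 lay between 0.32 and 0.33 in the WT libraries, against 0.22 to 0.43 in the cKO libraries. No test was applied to the ratios.

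**Figure D5:**
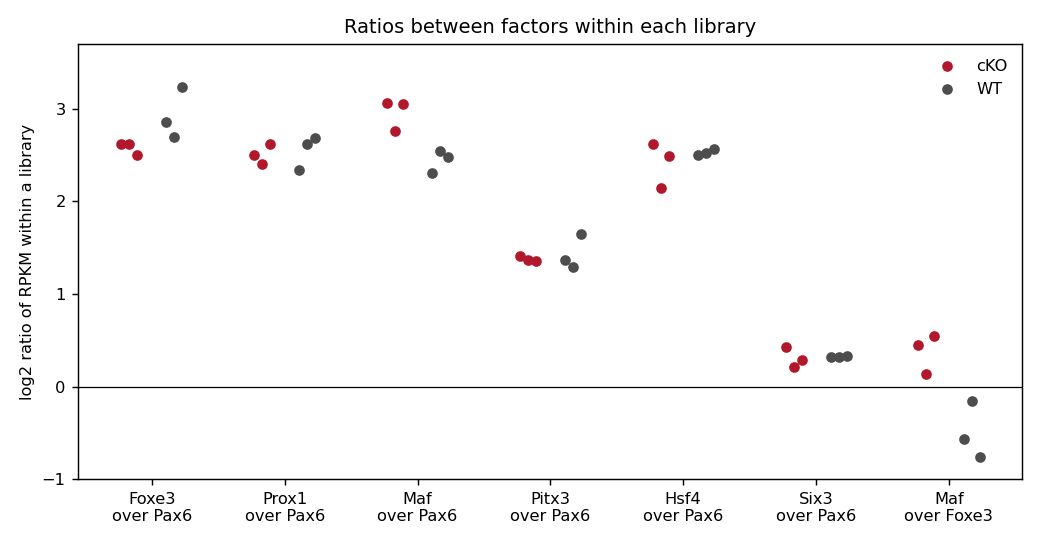
Log2 ratio of RPKM between factors within each library, cKO points left of WT points for each pair. Maf over Foxe3 lies between 0.13 and 0.55 in cKO and between -0.76 and -0.16 in WT, and the other ratios are each factor over Pax6.

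Paralogs could be followed for the same families. Of 26 paralogs 9 were tested, of which 2 rose and 1 fell, with a median log2 fold change of 0.14, against 20.9% of all genes higher, 15.9% lower and a median of 0.03. The small Maf gene Maff had 9.51 ± 0.713 CPM in cKO and 6.05 ± 0.934 CPM in WT (0.58, adjusted p = 0.00309), so it rose as Maf did. Mafg, the most abundant small Maf gene, had 310 ± 19.3 CPM in cKO and 351 ± 15.9 CPM in WT (-0.18, adjusted p = 0.0689). It passed the threshold as lower without cKO replicate 2 (adjusted p = 0.0419), so that 2 paralogs fell in that setting. Mafg also passed it with TMM scaling (-0.20, adjusted p = 0.0202), RLE or crystallin-free scaling, the replicate block, limma-voom, edgeR and DESeq2. Correction for GC content and gene length brought it to -0.04 (adjusted p = 0.653). Mafa, a large Maf gene like Maf itself, had 14.9 ± 1.83 CPM in cKO and 13.5 ± 2.64 CPM in WT (adjusted p = 0.447). Mafa is named beyond the rule for named genes, as are Sox3 and the Pax genes.

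Among heat shock factors, Hsf2 rose, with 26.9 ± 2.75 CPM in cKO and 19.6 ± 2.35 CPM in WT (0.44, adjusted p = 0.00566), and Hsf1, the stress-responsive factor, fell, with 33.8 ± 0.953 CPM in cKO and 42.5 ± 2.15 CPM in WT (-0.32, adjusted p = 0.00673). The Hsf2 call ended once GC content and gene length were corrected for (0.13, adjusted p = 0.297), which left 1 paralog that rose. Sox3, the remaining member of the Sox1 and Sox2 group, had 1.96 ± 0.401 CPM in cKO and 1.62 ± 0.291 CPM in WT (adjusted p = 0.426). The Pax paralogs Pax2, Pax3, Pax5, Pax7, Pax8 and Pax9 stayed under 1 CPM in every library and were not tested.

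Of 28 other regulators of lens development, 27 were listed and 24 tested, with 5 higher and 3 lower in cKO, against 20.9% of all genes higher and 15.9% lower, and a log2 fold change of 0.11 at the median, against 0.03. These shares are near those of all genes. The smallest adjusted p-values were those of Eya2, a transcriptional coactivator with phosphatase activity, with 4.04 ± 1.26 CPM in cKO and 0.549 ± 0.182 CPM in WT (1.68, adjusted p = 1.93e-05), and Sox4, an HMG-box factor, with 20.5 ± 3.07 CPM in cKO and 8.94 ± 2.58 CPM in WT (1.14, adjusted p = 0.000642). Eya2 was under 1 CPM in every WT library and entered the test only through its cKO values. Its call is counted among the 5 that rose, but it is given as values only and supports nothing further. The log2 fold change of Eya2 was 2.87 by edgeR. The chromatin remodeler Smarca4 fell, with 312 ± 27.0 CPM in cKO and 414 ± 35.3 CPM in WT (-0.41, adjusted p = 0.0022, and -0.26 once GC content and gene length were corrected for). Gata3 (-0.41, adjusted p = 0.00325) and Pknox1 (-0.37, adjusted p = 0.00685) were the other 2 that fell, and Pknox1 was named after its value was seen. The count of regulators that rose was 2 without cKO replicate 2, 1 without cKO replicate 3 and 2 with all libraries thinned to equal reads, and the count that fell was 5 with TMM scaling. Of the 50-base words of Sox4, 54.1% also occur in transcripts of other genes, and how the authors counted such reads is not stated, so its level is uncertain. Mab21l1 and Mab21l2 were listed at 0 in all libraries.

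Of 22 genes known to be controlled by the lens factors, 21 were tested, 3 rose and 5 fell, with -0.06 as their median on the log2 scale. The shares over all genes were 20.9% higher and 15.9% lower, 36.9% together, which is near the share called among these targets. Bfsp2, a beaded filament protein of fibers that depends on Hsf4, had 15.3 ± 1.37 CPM in cKO and 653 ± 73.6 CPM in WT (-5.32, adjusted p = 2.5e-13), a far larger difference than that of any factor. Hsf4 itself was uncalled (-0.13, adjusted p = 0.176 by limma). The groups also differed in strain background, and the part of strain or of Hsf4 in the fall of Bfsp2 was not tested. Cdkn1c, a cell cycle inhibitor that depends on Prox1 in mouse lens, fell, with 1139 ± 40.4 CPM in cKO and 1618 ± 45.6 CPM in WT (-0.51, adjusted p = 0.00012). Crygb, a γ-crystallin gene, rose, with 15919 ± 2144 CPM in cKO and 11585 ± 1149.8 CPM in WT (0.45, adjusted p = 0.00531), and so did Cdh1, the E-cadherin gene, with 305 ± 30.4 CPM in cKO and 220.1 ± 8.73 CPM in WT (0.46, adjusted p = 0.000733). Words shared with other genes made up 29.4% of Crygb, 24.9% of Cdkn1c and 9.47% of Bfsp2, and the levels of the near-identical γ-crystallin genes are uncertain for that reason. The count that fell was 3 without cKO replicate 3 or WT replicate 3.

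Among these targets are crystallin genes that Maf, Prox1, Pax6 and Sox1 act on. Of the 10 in that list, Crygb passed the test, against 36.9% of all genes in either direction, and the other 9 had log2 fold changes between -0.11 and 0.14 (named as a group after their values were seen). Cryaa, the αA-crystallin gene, had 132560 ± 5310 CPM in cKO and 140100 ± 5763 CPM in WT (-0.08, adjusted p = 0.496).

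Across all 6 libraries, the gene whose log2(CPM + 1) ran most like that of each factor was taken from 8040 tested genes whose mean reached 10 CPM. These were Yipf4 for Maf (Pearson r = 0.9989), Madd for Prox1 (0.9988), Rbbp5 for Six3 (0.9893), Pcgf2 for Pax6 (0.9869), Wiz for Foxe3 (0.9857), Axin2 for Pitx3 (0.9831) and Znhit2 for Hsf4 (0.9772). The points are 6 libraries of 2 groups that share depth and genotype, so the values only describe likeness of pattern. Maf had 1027 genes with r over 0.9, Prox1 245, Foxe3 194 and the other 4 factors 28 to 55. Yipf4, a gene of the Yip1 membrane protein family, had 42.5, 41.8 and 43.0 CPM in cKO lenses, against 23.6, 27.9 and 23.9 CPM in WT lenses (0.74, adjusted p = 3.67e-05).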

How the data were processed

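Whole lenses at E15.5 gave poly(A) RNA libraries that were read single-end, per the labels' protocols. The CPM and RPKM in each deposited file are the authors' own, as its header names them, and the submitters' processing notes name edgeR and GRCm38. The aligner, the counting rule, the annotation and the treatment of reads with several matches have no statement in the sources used here. Every deposited CPM value was a whole multiple of 1 read within 0.02 reads (100% of values in each library), so whole reads were recovered. Coordinates come from GENCODE M21 (GRCm38) and promoters from RefSeq. The test was limma-trend (limma 3.58.1, R 4.3.3) on log2(CPM + 1), robustly moderated, with no term but group. Genes entered it when 3 or more libraries reached 1 CPM. Fold changes on that scale understate those of low genes, and adjusted p is Benjamini-Hochberg over all 11941 genes, two-sided. It measures the spread between pools that the labels call biological replicates. Intervals are 95% intervals of the fit. On recovered reads, edgeR 4.0.16 called 4776 genes (40.0%). Replicates differed beyond counting noise (chi-square per degree of freedom 4.03 to 17.5), so none was counted as a repeat. On simulated counts for cKO against WT over 11852 genes, the test recovered 79% of 100 genes changed 1.5-fold and 100% of 100 changed 2-fold, with 18 false among 197 calls. That false share lies above the threshold of 0.05. Only these genes were changed, all of them upward, whereas 36.9% of the genes tested were called in the real data, in both directions. Recovery and false share in the real data can therefore differ. Alternatives were TMM, RLE and crystallin-free scaling, other filters, a pseudocount of 0.1, a replicate block, limma-voom, edgeR, DESeq2 1.42.0, thinned reads, correction for GC content and length, and leaving out each library.

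The members and gene lists were chosen with earlier results of these data known. Named genes are the 9 factors, all opposite-strand genes that overlap them, up to 4 genes of smallest adjusted p per list, the gene most like each factor, and Itgb1. Some members of the lists are not reported here and were left out of their counts. Sequences of proteins were not used here.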

Additional observations from a re-analysis of the deposited data

How the results depend on the processing

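Maf was called in all 18 alternatives. Foxe3 kept its direction in all of them and lost its call without a filter on low values (-0.37, adjusted p = 0.0665), with thinned reads (-0.39, adjusted p = 0.0508) and without cKO replicate 1 or 3 or WT replicate 1 or 3. Leaving out 1 library gave -0.49 to -0.25 for Foxe3, -0.11 to 0.04 for Pax6, -0.11 to 0.01 for Prox1 and -0.07 to 0.02 for Six3. With correction for GC content and length Pax6 was at 0.02 and Six3 at 0.09, and with thinned reads Six3 was at 0.03, all of them uncalled. Pitx3 (-0.16 to 0.00) and Hsf4 (-0.18 to -0.04) were called in none of their alternatives. The cause of these changes was not tested.

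The replicate number as a block left Foxe3 at -0.37 with adjusted p = 0.27, ended the call of Dnase2b (-0.64, adjusted p = 0.0857) and called 2 paralogs lower and 8 other lens regulators higher. Over all genes the block called 2916 higher and 2249 lower, against 2499 and 1904 in the reported processing. Deviations from the group means correlated at 0.327, -0.034 and 0.147 between samples numbered 1, 2 and 3 in both groups. These correlations cannot decide whether samples of the same number were paired, since samples of different numbers were not compared in this way.

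Other lens regulators called higher numbered 2 with thinned reads and 1 to 5 with 1 library left out, and those called lower 5 with TMM, RLE or crystallin-free scaling, limma-voom or edgeR. Paralogs called higher numbered 1 with correction for GC content and length. Paralogs called lower numbered 2 with TMM, RLE or crystallin-free scaling, limma-voom, edgeR or DESeq2, and 1 to 2 with 1 library left out. Target genes called lower numbered 3 to 6 with 1 library left out. In all genes, 1714 to 2916 were higher and 1322 to 2430 lower over all alternatives, and RLE scaling gave 2361 higher and 2430 lower, against 2499 and 1904.

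The order of levels depended on length. By CPM, not divided by length, the cKO order was Maf 1, Prox1 2, Pax6 3, Hsf4 4, Six3 5, Foxe3 6 and Pitx3 7, and the WT order Prox1 1, Maf 2 and the same from Pax6 3 to Pitx3 7. By longest coding transcript Pax6 was 6 and Six3 7 in both groups, and in WT Maf was 2, Prox1 3 and Hsf4 4.

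Among 47 other named genes, 772 of 835 values kept direction and call, 40 lost the call, 21 gained it and 2 changed sign, both of the uncalled retina marker Sfrp2 (-0.25 without cKO replicate 2 and -0.06 without WT replicate 2, of a range from -0.25 to 0.29). Of 216 counts of marker lists 11 moved by over 1.5 times. With 968 or more reads per library, counting error of the measured factors was at most 3.21%, and for each factor it was below its spread between replicates in both groups.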

Other observations

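The compartments in which the factors act have marker genes of their own. Of 12 fiber cell markers 0 rose and 5 fell by limma, against 20.9% of all genes higher and 15.9% lower, with a median log2 fold change of -0.22. The lists share genes, so their counts are not separate observations. Mip, Dnase2b and Cdkn1c, which fell, were also counted among the target genes above. Birc7, a caspase inhibitor gene used as a fiber marker, had 34.3 ± 5.87 CPM in cKO and 58.3 ± 9.46 CPM in WT (-0.75, adjusted p = 0.00146). Gja3, the connexin 46 gene of fiber gap junctions, had 662 ± 33.4 CPM in cKO and 839.9 ± 61.6 CPM in WT (-0.34, adjusted p = 0.00353). Dnase2b, the nuclease that degrades fiber nuclei, had 37.8 ± 5.98 CPM in cKO and 59.8 ± 11.2 CPM in WT (-0.64, adjusted p = 0.00453).

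Of 10 lens epithelium markers 1 rose (Cdh1) and 5 fell, against 20.9% of all genes higher and 15.9% lower, with a median log2 fold change of -0.28, and the count that fell was 3 without cKO replicate 1. Cdh1, and Pdgfra among those that fell, were also counted among the target genes. Npnt, a matrix ligand of integrins, had 80.1 ± 7.60 CPM in cKO and 115 ± 5.31 CPM in WT (-0.52, adjusted p = 0.000431). Slc38a3, an amino acid transporter gene, had 66.3 ± 4.82 CPM in cKO and 97.2 ± 6.24 CPM in WT (-0.55, adjusted p = 0.000267). Ccnd1, the cyclin D1 gene, had 156 ± 28.9 CPM in cKO and 213 ± 21.4 CPM in WT (-0.46, adjusted p = 0.0132), and shares 21.6% of its 50-base words with other genes.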
